A study of Mus musculus with 6 samples.

Results

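The 8 genes described here write, maintain, remove or read DNA methylation: Dnmt1, Uhrf1, Dnmt3a, Dnmt3b, Tet1, Tet2, Tet3 and Mbd2. They were chosen by symbol for these roles, and each matched 1 row of the table, 8 of 46078 rows in all. RNA-seq was performed on regulatory T cells (Treg cells), a Foxp3-dependent T cell type that holds immune reactions in check, sorted from spleen as CD4-positive, eGFP-positive cells of C57BL/6 mice 6 to 8 weeks old. Of the 6 libraries, 3 were labelled MAZR-cKO, from mice with floxed MAZR alleles (MAZRf/f) and a CD4-cre transgene, and 3 were labelled WT. Mice of both labels carried the DEREG transgene, whose eGFP is driven by Foxp3 sequences and served for the sort. Cre under Cd4 control acts in the thymus already, so the deletion is not limited to Treg cells. The labels name no Cre for the WT mice and do not say whether a library came from 1 animal or from several, so a p-value here measures only how these libraries spread, which may be technical.

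Cytosines in CG pairs carry methyl groups that pass from one cell generation to the next. Dnmt1, guided by Uhrf1 to newly copied DNA, restores the mark after replication, Dnmt3a and Dnmt3b add it to unmethylated DNA, and the TET enzymes oxidise it, which leads to its loss. In Treg cells a conserved intronic element of Foxp3 has to stay free of methylation for stable Foxp3 expression, and in mice Tet2, Tet3 and Mbd2 are known to take part in keeping it so.

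The promoters are shown first, because Uhrf1 and Dnmt1, partners in maintenance, share a rare string in theirs. RefSeq promoter windows (GRCm38.p6, from 250 bases before to 50 bases after an annotated start) were found for 7 of the 8 genes, 12 windows in all. The string is the E2F site TTTCGCGC or TTTGGCGC, searched on both strands, with no overlapping matches in the members' windows. It lies in 0.814% of 32817 windows of any CG content, and its share among CG-rich windows was not computed. Of the 12 windows, 2 held it, 1 of Uhrf1 and 1 of Dnmt1. A match is a description of these letters and not a measured binding site. The windows with a match are followed by that of Tet1, the gene whose levels did not overlap between the labels. Each reads 5′ to 3′ on the strand of its gene, with E2F matches in capitals.
Uhrf1, chr17:56304063-56304362, plus strand: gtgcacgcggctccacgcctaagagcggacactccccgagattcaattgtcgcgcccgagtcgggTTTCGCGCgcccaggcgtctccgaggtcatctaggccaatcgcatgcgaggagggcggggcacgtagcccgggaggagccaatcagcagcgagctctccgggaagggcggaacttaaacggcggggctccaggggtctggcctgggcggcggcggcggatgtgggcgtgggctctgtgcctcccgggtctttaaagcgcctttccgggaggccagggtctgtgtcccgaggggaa
Dnmt1, chr9:20952574-20952873, minus strand: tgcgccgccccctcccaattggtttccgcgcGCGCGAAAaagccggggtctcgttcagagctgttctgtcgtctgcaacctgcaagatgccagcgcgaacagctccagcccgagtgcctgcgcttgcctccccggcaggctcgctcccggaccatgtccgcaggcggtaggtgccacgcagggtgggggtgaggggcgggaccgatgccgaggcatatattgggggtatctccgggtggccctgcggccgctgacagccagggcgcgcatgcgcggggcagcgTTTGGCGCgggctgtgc
Tet1, chr10:62887275-62887574, minus strand: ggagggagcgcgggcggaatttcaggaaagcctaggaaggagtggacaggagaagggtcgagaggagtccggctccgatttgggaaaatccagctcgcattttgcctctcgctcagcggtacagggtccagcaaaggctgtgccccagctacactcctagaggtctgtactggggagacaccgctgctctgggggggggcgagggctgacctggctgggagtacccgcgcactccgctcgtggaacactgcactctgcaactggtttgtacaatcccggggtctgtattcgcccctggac
Counted from the annotated start, the Uhrf1 match begins at position -185, and the 2 Dnmt1 matches begin at -219 and 33. These Uhrf1 and Dnmt1 windows held 33 CG pairs each, the Tet1 window 17, and the median window 7. Of the other members, Tet2 had 57 CG pairs, Dnmt3a 46, 47 and 18 in its 3 windows, Dnmt3b 30 and Tet3 22. The windows at the other annotated starts held 12 for Uhrf1 and 2 and 12 for Dnmt1, without an E2F match. The core GGGAGGG of MAZ, a zinc finger factor related to MAZR, was searched on both strands too. It lay in 7 of the 12 windows, 3 of them of Dnmt3a with an overlapping pair, against 21.9% of all windows. The 7 windows held 58.3% to 82.3% G and C, where the median window held 52.7%. The share of this core among windows of like G and C content was not computed.

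Patz1, which encodes MAZR, checked the labels and was higher, not lower, under MAZR-cKO. It stood at 177, 181 and 179 CPM (read counts scaled to library size) in the libraries labelled MAZR-cKO 1, 2 and 3, against 71.6, 74.9 and 67.6 CPM in WT 1, 2 and 3, a log2 difference of 1.32 (limma adjusted p = 3.7e-06). A gene-level value sums all exons and cannot show whether the deleted part was present, so each direction below is that of the libraries as labelled. Depth ran from 15481565 to 28184456 reads per library. Treg markers were high in all 6, with Foxp3 at 1252 to 1415 CPM. The summed levels of marker lists were 32.4 to 82.9 CPM against 46.6 to 52.5 CPM for 6 B and plasma cell genes, 35.5 to 99.6 against 61.2 to 71.0 CPM for 5 myeloid genes, 9.47 to 19.4 against 8.67 to 15.0 CPM for 2 NK cell genes, 15.1 to 17.2 against 13.4 to 15.4 CPM for 2 CD8 genes and 14.6 to 25.2 against 19.4 to 53.3 CPM for 8 red cell and platelet genes, MAZR-cKO before WT each time. None of these markers was at 0 in all libraries. With the replicate block 1 was called, the beta-globin gene Hbb-bs, at 7.12 ± 2.5 CPM under MAZR-cKO and 15.1 ± 8.6 CPM under WT (limma adjusted p = 0.0206 with the block). The part of other cells in the results was not tested. The sum of 4 Y-linked genes was 116, 0.480 and 199 CPM in MAZR-cKO 1, 2 and 3, against 217, 164 and 276 CPM in WT 1, 2 and 3. It was lower under MAZR-cKO within each replicate number, and library MAZR-cKO 2 stood apart. Xist, the X-inactivation transcript, was higher under MAZR-cKO, with a log2 fold change of 0.93 with the block (limma adjusted p = 1.05e-05). The part of the sex of the animals in the results was not tested.

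All 8 genes were expressed, and all 8 passed the filter of 1 CPM in at least 3 libraries. Levels of different genes are compared here as CPM per kilobase of annotated exons. Mbd2, which binds methylated CG pairs and recruits the NuRD repressor complex, was highest at 51.7 ± 2.7 under MAZR-cKO and 52.8 ± 1.3 under WT (SD, n = 3 each). Dnmt1 followed at 32.1 ± 0.71 and 33.3 ± 1.2, and Tet3 at 23.8 ± 0.77 and 22.7 ± 0.54. Dnmt3a was next at 12.5 ± 0.078 and 12.1 ± 0.46. The lower levels were those of Uhrf1, at 7.28 ± 1.3 and 9.50 ± 2.8 CPM per kilobase, and of Tet2, at 5.00 ± 0.16 and 4.76 ± 0.26. Dnmt3b, at 2.58 ± 0.19 and 2.91 ± 0.31, and Tet1, at 1.41 ± 0.16 and 1.65 ± 0.045, were the lowest. In this order only Dnmt3a and Uhrf1 were neighbours whose ranges over the 6 libraries overlapped, at 11.6 to 12.6 and 6.05 to 12.5. Per kilobase of the longest coding transcript the order was the same except that Uhrf1, at 7.18 to 14.8 over the 6 libraries, overlapped Tet2, at 8.32 to 9.50, and was below it in the MAZR-cKO mean. Of the summed per-kilobase level of the 3 TET genes, Tet3 made up 78.8 ± 1.0% under MAZR-cKO and 78.0 ± 0.81% under WT. Of that of the 3 DNMT genes, Dnmt1 made up 68.1 ± 0.77% under MAZR-cKO and 69.0 ± 1.5% under WT, and Dnmt3b 5.47 ± 0.46% and 6.02 ± 0.56%, both with overlap. Dnmt3a made up 26.5 ± 0.32% under MAZR-cKO and 25.03 ± 1.2% under WT, without overlap (SD, n = 3 each; exact two-sided permutation p = 0.1, the smallest that 3 libraries against 3 allow). The Tet1 share of the TET sum, 4.68 ± 0.56% under MAZR-cKO and 5.67 ± 0.19% under WT, did not overlap either.

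No member differed between the labels at a limma adjusted p under 0.05, and the differences were small for most. Of 12040 genes tested 0.0415% were called, all higher under MAZR-cKO, and 0 of the 8 members were. At an unadjusted p under 0.05 there was 1 member, Tet1, where 5.25% of all genes lay, and by edgeR on recovered reads there was none, where 5.19% of all genes lay. None of the 8 was called by edgeR either, where 0.0386% of genes were, nor by DESeq2 (0.215%), by limma with the replicate number as a block (0.382%) or by edgeR with it (0.355%). The adjusted p of the members ran from 0.914 to 0.951, and their median log2 fold change was -0.04 beside -0.01 over all tested genes. Tet1 was also the 1 member without overlap between the labels, where 10.7% of all genes had none.

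**Figure D1:**
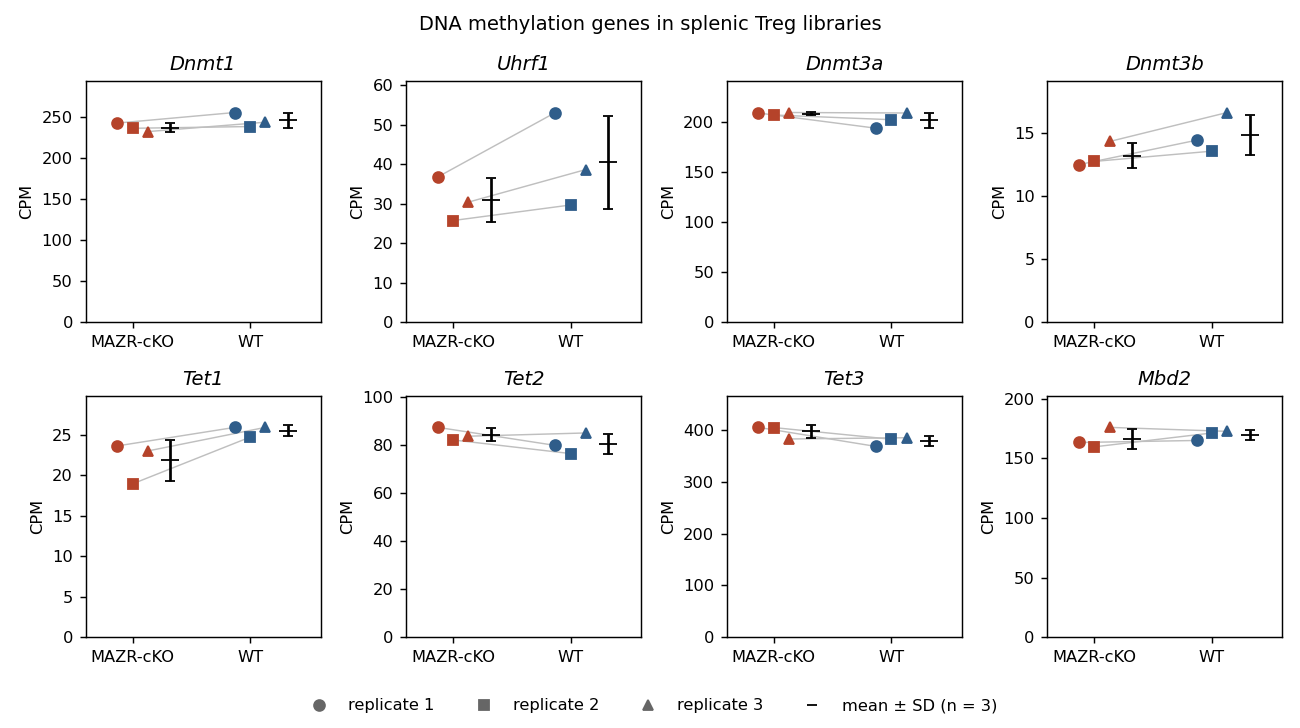
Level in CPM (vertical axes, from 0) of each of the 8 genes in 3 MAZR-cKO and 3 WT libraries, left and right. Symbols mark the replicate number, grey lines join libraries of the same number, and the black bar gives mean ± SD (n = 3). Tet1 shows no overlap between the labels, and Uhrf1 is lower under MAZR-cKO within each of the 3 numbers.

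Among the maintenance genes, Dnmt1, the methyltransferase that copies the mark, had 243, 236 and 232 CPM in libraries MAZR-cKO 1, 2 and 3, against 256, 239 and 244 CPM in WT 1, 2 and 3. The labels overlapped, with WT 1 the highest. Its log2 fold change was -0.05 (SE 0.05, 95% interval -0.16 to 0.05, limma adjusted p = 0.926). Dnmt1 (ENSMUSG00000004099) is a protein-coding gene on chromosome 9 from 20907209 to 20959888 (GRCm38, minus strand).

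Uhrf1, which recognises hemimethylated DNA and recruits Dnmt1, varied most of the 8. It had 36.8, 25.8 and 30.4 CPM in libraries MAZR-cKO 1, 2 and 3, against 53.1, 29.7 and 38.7 CPM in WT 1, 2 and 3. The labels overlapped, but under both labels replicate 1 was the highest and replicate 2 the lowest, and the MAZR-cKO library was the lower of each number. The means were 31.0 ± 5.5 CPM under MAZR-cKO and 40.5 ± 11.8 CPM under WT (SD, n = 3 each), a log2 fold change of -0.36 (SE 0.20, 95% interval -0.80 to 0.09, limma adjusted p = 0.914). Its SD within a label was 0.34 on the log2 scale, while counting error at its lowest depth, 483 reads, is 0.07.

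The labels' replicate numbers pair the libraries, and with the number as a block the interval of Uhrf1 lay below 0. The log2 differences within pairs 1, 2 and 3 were -0.52, -0.20 and -0.34. With the block the log2 fold change was -0.36 (SE 0.07, 95% interval -0.52 to -0.20), with an unadjusted p of 4.86e-04 that 67 of the 12040 genes undercut, and the limma adjusted p was 0.0858. edgeR with the block gave an adjusted p of 0.107, so the gene was not called in either. It was called in the blocked limma fit on 2 pairs alone, with an adjusted p of 0.0337 without replicate 2 and 0.0373 without replicate 3, and not without replicate 1 (0.543). Of the 12040 genes, 45 were called without replicate 2, 279 without replicate 3 and 8 without replicate 1. Without the block, leaving out WT 1 gave a log2 fold change of -0.14, leaving out MAZR-cKO 2 gave -0.23 and leaving out WT 2 gave -0.56. Uhrf1 (ENSMUSG00000001228) lies on chromosome 17 from 56303321 to 56323486 (plus strand).

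**Figure D2:**
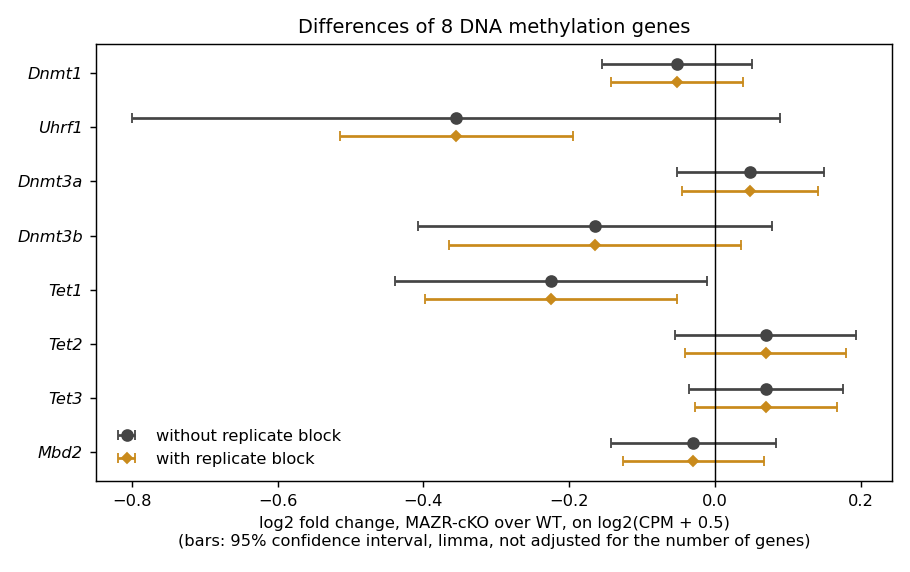
Log2 fold change of each gene, MAZR-cKO over WT, on the log2(CPM + 0.5) scale (horizontal axis), with 95% confidence intervals from limma, without (circles) and with (diamonds) the replicate number as a block. With the block the interval of Uhrf1 runs from -0.52 to -0.20 and that of Tet1 from -0.40 to -0.05, and the other 6 include 0.

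Genes of replication and mitosis had the library profiles nearest to that of Uhrf1. By the root mean square difference of mean-centred log2(CPM + 0.5) profiles over the 6 libraries, the nearest of 9891 genes with a mean of at least 5 CPM were Birc5, E2f8, Spag5, Clspn and Chaf1a, at 0.06 to 0.11, where the median gene was at 0.34. Birc5 encodes the mitotic protein survivin, Clspn the checkpoint protein claspin and Chaf1a a subunit of the replication-coupled chromatin assembly factor. Birc5 stood at 15.2, 10.3 and 10.9 CPM in MAZR-cKO 1, 2 and 3, against 21.0, 11.6 and 15.9 CPM in WT 1, 2 and 3. These 5 genes were chosen for likeness to the Uhrf1 profile, so the shared pattern adds no separate support. Birc5 is also among the 18 genes summed next. The summed level of 18 replication and proliferation genes was 1333, 1069.7 and 1133 CPM in MAZR-cKO 1, 2 and 3, against 1492, 1098 and 1281 CPM in the WT libraries, in the order of replicates that Uhrf1 shows. Mcm6, a subunit of the replicative helicase, stood at 152 ± 14 CPM under MAZR-cKO and 169.7 ± 15 CPM under WT. Tyms, which makes thymidylate, stood at 13.6 ± 2.3 and 17.1 ± 3.8 CPM, and Rrm2, a subunit of ribonucleotide reductase, at 35.01 ± 5.4 and 43.0 ± 9.2 CPM, in the same order. All 18 had negative log2 fold changes, with a median of -0.14 beside -0.01 over all genes, and 0 of 18 were called by limma. With the block, 9 of the 18 had an unadjusted limma p under 0.05, where 10.6% of all genes had, and 0 were called. The part of proliferating cells in the Uhrf1 values was not tested. In bulk libraries such as these, fewer cells of a type and less RNA per cell cannot be told apart.

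**Figure D3:**
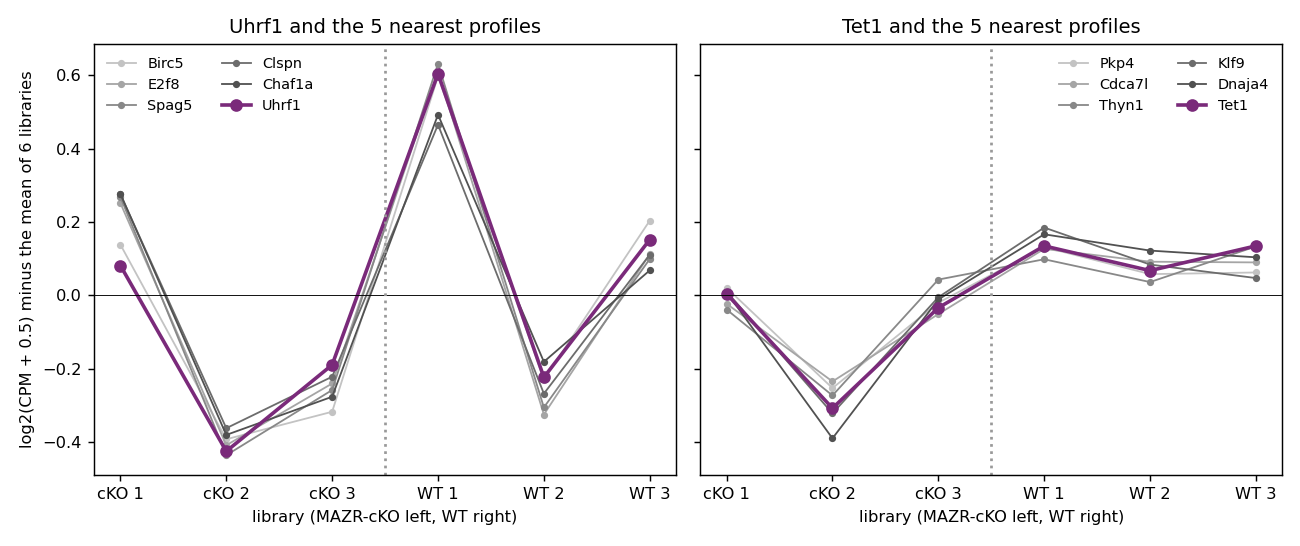
Mean-centred log2(CPM + 0.5) (vertical axis) in the 6 libraries, MAZR-cKO left and WT right, of Uhrf1 and Tet1 (purple) and of the 5 genes with the nearest profiles to each (grey). Uhrf1 and its neighbours peak in WT 1, while Tet1 and its neighbours are lowest in MAZR-cKO 2.

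The de novo methyltransferases pointed in opposite directions by amounts within their error. Dnmt3a, the main de novo enzyme of mature T cells, had 209, 207 and 209 CPM in MAZR-cKO 1, 2 and 3, against 193, 202 and 209 CPM in WT 1, 2 and 3. WT 3 lay within the MAZR-cKO range, and each MAZR-cKO library was at or above the WT library of its number. Its log2 fold change was 0.05 (SE 0.04, 95% interval -0.05 to 0.15, limma adjusted p = 0.926). Dnmt3b, better known from embryonic cells, had 12.5, 12.7 and 14.3 CPM in MAZR-cKO 1, 2 and 3, against 14.4, 13.6 and 16.6 CPM in WT 1, 2 and 3. The labels overlapped, and the MAZR-cKO library was the lower in each pair. Its log2 fold change was -0.16 (SE 0.11, 95% interval -0.41 to 0.08, limma adjusted p = 0.914), and with 201 to 413 reads per library its counting error reached 0.10 on the log2 scale. The ratio of Dnmt3a to Dnmt3b CPM, which does not depend on the scaling between libraries, was 15.8 ± 1.1 under MAZR-cKO and 13.6 ± 1.2 under WT (SD, n = 3 each; exact two-sided permutation p = 0.2). With 3 libraries against 3 this test cannot go below 0.1. Dnmt3a (ENSMUSG00000020661) lies on chromosome 12 from 3806007 to 3914443 and Dnmt3b (ENSMUSG00000027478) on chromosome 2 from 153649450 to 153687730, both on the plus strand.

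Of the TET dioxygenases, Tet1 was the lowest in level and the 1 with no overlap. It had 23.6, 18.9 and 23.0 CPM in MAZR-cKO 1, 2 and 3, against 25.9, 24.7 and 25.9 CPM in WT 1, 2 and 3. All 3 MAZR-cKO libraries were below all 3 WT libraries, and MAZR-cKO 2, the library that almost lacked Y-linked transcripts, was the lowest. The means were 21.8 ± 2.5 CPM under MAZR-cKO and 25.5 ± 0.70 CPM under WT (SD, n = 3 each), a log2 fold change of -0.22 (SE 0.09, 95% interval -0.44 to -0.01, limma adjusted p = 0.914, or 0.335 with the block). Without MAZR-cKO 2 the log2 fold change was -0.13 (limma adjusted p = 0.993). Over all alternatives its adjusted p ran from 0.190 to 1. The exact permutation test on CPM gave p = 0.1, the smallest it allows.

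Tet2 and Tet3, which act on the Foxp3 element in mouse Treg cells, had small positive differences with overlap. Tet2 had 87.2, 82.0 and 83.6 CPM in MAZR-cKO 1, 2 and 3, against 79.7, 76.3 and 84.9 CPM in WT 1, 2 and 3, a log2 fold change of 0.07 (SE 0.05, 95% interval -0.05 to 0.19, limma adjusted p = 0.922). Tet3 had 405, 405 and 383 CPM in MAZR-cKO 1, 2 and 3, against 369, 382 and 385 CPM in WT 1, 2 and 3, a log2 fold change of 0.07 (SE 0.05, 95% interval -0.04 to 0.18, limma adjusted p = 0.914). In both genes pairs 1 and 2 were higher and pair 3 lower under MAZR-cKO. The ratio of Tet1 to Tet3 CPM was 0.0550 ± 0.0072 under MAZR-cKO and 0.0674 ± 0.0029 under WT without overlap (SD, n = 3 each; exact permutation p = 0.1), and that of Tet2 to Tet3 was 0.212 ± 0.0083 and 0.212 ± 0.011. Tet1 (ENSMUSG00000047146) lies on chromosome 10 from 62804570 to 62908996, Tet2 (ENSMUSG00000040943) on chromosome 3 from 133463679 to 133545139 and Tet3 (ENSMUSG00000034832) on chromosome 6 from 83362373 to 83459084, all on the minus strand.

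The nearest profiles to Tet1, by the same measure, were those of Pkp4, Cdca7l, Thyn1, Klf9 and Dnaja4, at 0.04 to 0.05, where the median gene was at 0.17. Cdca7l, whose relative CDCA7 works with the remodeller HELLS in DNA methylation, had 42.4, 36.6 and 41.6 CPM in MAZR-cKO 1, 2 and 3, against 47.1, 46.0 and 45.9 CPM in WT 1, 2 and 3. Like Tet1 it was lowest in MAZR-cKO 2 and did not overlap between the labels. The same held for Pkp4, Klf9 and Dnaja4, while Thyn1 was lowest in that library but overlapped. Because the 5 were chosen for their likeness to the Tet1 profile, the shared pattern adds no separate support. None of the 5 was called by limma (adjusted p = 0.914 each).

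Mbd2, the reader of the set, had 163, 159.7 and 176 CPM in MAZR-cKO 1, 2 and 3, against 165, 171 and 173 CPM in WT 1, 2 and 3. The highest and the lowest library both carried the label MAZR-cKO. Its log2 fold change was -0.03 (SE 0.05, 95% interval -0.14 to 0.08, limma adjusted p = 0.951), the smallest of the 8 in size. Mbd2 (ENSMUSG00000024513) lies on chromosome 18 from 70568189 to 70626131 (plus strand). Annotated models that overlap exons of the members are the opposite-strand transcripts Dnmt3aos, at 0 CPM in all libraries, and Gm42567 over Tet2, at 0.0186 CPM on average.

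Within the pairs, Dnmt1, Dnmt3b, Uhrf1 and Tet1 were lower under MAZR-cKO in all 3 and Dnmt3a was higher in all 3, 5 of 8 members, where 32.1% of all tested genes kept 1 direction, 12.9% higher and 19.2% lower. With the block, 2 members, Uhrf1 and Tet1, had an unadjusted limma p under 0.05, where 10.6% of all genes had. The same 2 had one by edgeR with the block, where 9.86% had.

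The wider pathway lists held 66 further genes, of which 62 were tested, and 0 were called by limma. Of the 62, 31 had positive and 31 negative log2 fold changes, with a median of 0.00 beside -0.01 over all genes. Without overlap were 5 higher and 5 lower genes, where 5% of all genes were higher and 5.74% lower in this way. Unadjusted p-values under 0.05 were found for 3 positive and 2 negative genes, against 2.33% and 2.92% of all genes. The adjusted p without the block ran from 0.724 to 0.996. With the block, 6 positive and 5 negative genes of the 62 had an unadjusted limma p under 0.05, where 10.6% of all genes had.

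Of the other writers and maintenance partners 8 of 10 were tested, 1 positive and 7 negative, with a median of -0.10. Besides Cdca7l, which had the smallest p, Lig1, the DNA ligase of replication, stood at 46.0 ± 6.8 CPM under MAZR-cKO and 52.9 ± 9.2 CPM under WT. Hells, the remodeller, stood at 21.7 ± 1.6 and 24.6 ± 4.2 CPM, and Cdca7 at 27.0 ± 4.6 and 30.5 ± 4.3 CPM, in the same order. The summed level of the list, 639 to 667 CPM under MAZR-cKO and 671 to 703 CPM under WT, did not overlap. The sums of the members and of the other methylation lists did overlap, and a background share for such sums was not computed. Usp7, the highest gene of the list at 265 to 287 CPM over the 6 libraries, overlapped by itself. Dnmt3l, a cofactor of the de novo enzymes in germ cells, and Dppa3, a maternal factor that restrains Uhrf1, had 0 reads in all 6 libraries, which allows up to 0.104 to 0.186 CPM per library at 3 reads.

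Cxxc5, Gadd45b and Gadd45g had the largest positive log2 fold changes of the 62. Gadd45b, a stress-induced adaptor tied to active demethylation, had 56.7, 65.6 and 43.8 CPM in MAZR-cKO 1, 2 and 3, against 36.6, 39.8 and 43.6 CPM in WT 1, 2 and 3. The labels did not overlap, by a margin between MAZR-cKO 3 and WT 3 only. The log2 fold change was 0.45 (SE 0.13, limma adjusted p = 0.836, or 0.165 with the block). DESeq2 gave an adjusted p of 0.0681 for Gadd45b and 0.492 for Cxxc5. Gadd45g stood at 21.7 ± 3.0 CPM under MAZR-cKO and 17.4 ± 4.3 CPM under WT. Cxxc5, which binds unmethylated CG pairs and is known to interact with Tet2, had 9.32, 7.63 and 7.80 CPM in MAZR-cKO 1, 2 and 3, against 5.64, 6.15 and 4.48 CPM in WT 1, 2 and 3. All 3 MAZR-cKO libraries were the higher, with a log2 fold change of 0.57 (SE 0.15, limma adjusted p = 0.724, or 0.143 with the block). The summed B and plasma cell markers were at 69.2, 82.9 and 32.4 CPM in MAZR-cKO 1, 2 and 3 and 52.5, 49.5 and 46.6 CPM in WT 1, 2 and 3. They had the order of Gadd45b among the MAZR-cKO libraries and the reverse order among the WT libraries. Their part in the Gadd45b values was not tested.

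Of the 15 tested genes of base excision and active demethylation 7 were positive and 8 negative (median -0.07), among them Xrcc1, a scaffold of base excision repair, at 54.7 ± 3.5 CPM under MAZR-cKO and 59.0 ± 1.3 CPM under WT, and the glycosylase gene Neil2 at 4.64 ± 0.087 and 5.41 ± 0.36 CPM. Tdg, the glycosylase that removes the products of TET oxidation, stood at 5.97 ± 1.2 and 6.68 ± 1.4 CPM. All 6 tested CXXC protein genes were positive (median 0.06), such as Kdm2b, a histone demethylase, at 108 ± 11 CPM under MAZR-cKO and 96.5 ± 6.1 CPM under WT, Kmt2a at 851 ± 115 and 792 ± 81 CPM and Cxxc1 at 193 ± 3.0 and 189.7 ± 1.8 CPM. Cxxc4 had 0 reads.

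All 8 other methyl-CpG readers were tested, 5 positive and 3 negative (median 0.04). Zbtb4 stood at 196 ± 6.3 CPM under MAZR-cKO and 182 ± 11 CPM under WT, Mbd3 at 106 ± 6.7 and 113 ± 4.9 CPM, and Zbtb38 at 108 ± 6.7 and 104 ± 0.45 CPM.

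Of the 11 NuRD partners of Mbd2 4 were positive and 7 negative (median -0.03). The histone chaperone gene Rbbp7 stood at 127 ± 9.7 CPM under MAZR-cKO and 140.2 ± 7.3 CPM under WT. Gatad2a, at 168 ± 3.4 and 178 ± 0.41 CPM, Mta2, at 366 ± 13 and 387 ± 5.9 CPM, and Mta1, at 131 ± 6.0 and 136 ± 0.42 CPM, were the negative ones without overlap. For Mta1 the margin was only that between 135.90 CPM in MAZR-cKO 3 and 135.95 CPM in WT 2. Chd3, at 1619 ± 74 and 1537 ± 25 CPM, was the positive one without overlap. Of all tested genes 5.74% were lower and 5% higher without overlap. Of the 14 genes of methyl donor and 2-oxoglutarate supply 8 were positive and 6 negative (median 0.01). D2hgdh, which clears the TET inhibitor 2-hydroxyglutarate, stood at 27.6 ± 1.5 CPM under MAZR-cKO and 24.4 ± 1.2 CPM under WT without overlap, Idh1 at 13.5 ± 1.4 and 12.1 ± 1.1 CPM and Shmt2 at 81.3 ± 10.7 and 88.8 ± 6.3 CPM.

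**Figure D4:**
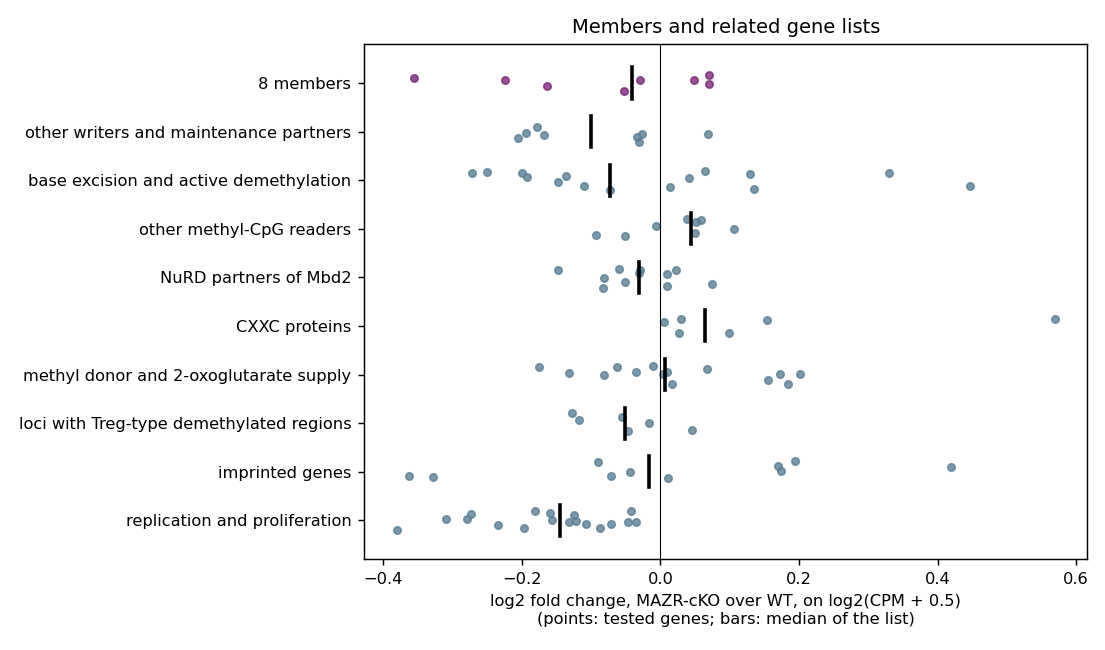
Log2 fold change, MAZR-cKO over WT (horizontal axis), of each tested gene of the 8 members, of 6 methylation lists, of genes with regions demethylated in Treg cells, of imprinted genes and of replication genes. Points are genes and bars are list medians, which lie between -0.14 and 0.06, and no gene shown was called by limma without the block.

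Levels of loci whose state depends on methylation were compared last. Methylation itself was not measured. Of 6 genes with regions that are demethylated in Treg cells 1 was positive and 5 negative, with a median of -0.05 and 0 called by limma. Foxp3 had 1313, 1365 and 1415 CPM in MAZR-cKO 1, 2 and 3, against 1252, 1345 and 1371 CPM in WT 1, 2 and 3, with overlap and a log2 fold change of 0.05 (SE 0.06, limma adjusted p = 0.933). Ikzf4, a transcription factor that works with Foxp3, stood at 227 ± 16 CPM under MAZR-cKO and 246 ± 10.4 CPM under WT. Il2ra, a chain of the interleukin-2 receptor, stood at 853 ± 185 and 926 ± 156 CPM, and Tnfrsf18, a costimulatory receptor, at 292 ± 20 and 304 ± 21 CPM.

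Germline genes that promoter methylation keeps silent in mouse somatic cells were close to silent under both labels. Of 11 such genes 5 had 0 reads in all libraries, and the 11 together had 21 reads under MAZR-cKO and 6 under WT. Of the MAZR-cKO reads, 9 were those of Dazl in 1 library. Of 20 imprinted genes 10 were tested, 5 positive and 5 negative, with 0 called by limma. Impact, at 32.8 ± 3.2 CPM under MAZR-cKO and 28.6 ± 1.3 CPM under WT, Airn, at 6.64 ± 1.7 and 8.53 ± 0.95 CPM, Plagl1, at 18.4 ± 4.9 and 23.0 ± 4.5 CPM, and Gnas, at 471 ± 30 and 501 ± 13 CPM, had the smallest p.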

How the data were processed

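The authors deposited 1 table of gene-level CPM for the 6 libraries, with 46078 Ensembl identifiers, of which 45143 were paired with a symbol through a table of gene names, and positions and lengths are those of GENCODE M21 (GRCm38). The submitters' processing notes name FastQC, STAR 2.5.2b, Subread 1.5.1, R 3.4, edgeR and mm10, without roles, settings or strand mode, and per the labels' protocols libraries came from a stranded TruSeq mRNA kit and RNA from sorted cells. Within each library 100% of values above 0 were whole multiples of the smallest one, within 0.01 reads, so whole reads were recovered for the count tests, which called 5 (edgeR) and 35 (DESeq2) genes. No 2 libraries were copies, with a chi-square of 5.39 to 19.0 per degree of freedom over genes with 20 or more reads.

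Values as log2 with a pseudocount of 0.5 CPM went into limma 3.58.1 under R 4.3.3, which let the variance follow the mean level, for 12040 genes with 1 CPM or more in at least 3 libraries. A call is a Benjamini-Hochberg adjusted p under 0.05 over all tested genes. Fold changes on this scale understate those of low genes. edgeR 4.0.16 and DESeq2 1.42.0 on the recovered reads, other pseudocounts, filters and scalings, a replicate block and leaving out libraries were alternatives. Libraries of the same replicate number correlated at 0.40, 0.38 and 0.38 after subtraction of the label means, each over the limit of 0.1, so the numbers, which the titles and a shared code in the descriptions give, were taken as pairs. The limma fits, with and without the block, were tested on simulated data. The simulated reads held no effect of the replicate number, so they do not test the blocked fit under such pairing. Overlap and pair counts over all genes give the background. Intervals and floors from reads cover counting error only.

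The members and gene lists were chosen with earlier results of these data known. Named are all members, the up to 4 tested genes of smallest p in each list, listed genes called in any fit, and the 5 nearest profiles to the 2 most variable members. Called genes of marker and sex-linked lists appear through summed levels, in the closing section or, for Hbb-bs and Xist, with values. Tdg, Chd3, Dazl and the low-read imprinted genes were named outside this rule after their values were seen. Some genes that the rule selects are not reported here. Promoter sequences are those of RefSeq, and motifs were searched by exact match.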

Additional observations from a re-analysis of the deposited data

How the results depend on the processing

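The 5 genes called by limma became 46 with the replicate block, 46 in edgeR with the block (39 higher and 7 lower) and 35 in DESeq2. Leaving out 1 library gave 4 to 14, the most without MAZR-cKO 3, and leaving out 1 pair in the blocked fit gave 8 without replicate 1, 45 without replicate 2 and 279 without replicate 3. The cause was not tested. The count of members called was 0 without a block, and 0 to 1 in the blocked fits on 2 pairs, where the 1 was Uhrf1. The count among the 62 tested pathway genes was 0 without a block, and 0 to 5 in the blocked fits on 2 pairs. The 5 came from the fit without replicate 3, where 279 of all 12040 genes were called. They were Gadd45b, Gadd45g and Kdm2b, which were higher, and Rbbp7 and Apex1, which were lower under MAZR-cKO. In that fit Plagl1 and 3 globin genes were called lower as well, and the B cell markers Ms4a1, Cd79a and Pax5 and the myeloid marker Lyz2 were called higher, and without replicate 2 Rrm2 and Hbb-bs were called lower. Y-linked genes were called lower in both of these fits. In the blocked fit on 3 pairs the X-inactivation transcript was called higher. In 144 refits of the members' fold changes 141 kept direction and side of the threshold and 2 gained a call (Uhrf1). The log2 fold change of Mbd2 reversed to 0.0063 in the blocked fit without replicate 2. The replicate block changed no other call of a member. No scaling moved the median of all genes by over 0.1 (log2). Dnmt3b, at 201 to 413 reads per library, is the member most limited by depth.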

Other observations

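Among the 10 imprinted genes under the filter, Peg10 and Sgce, neighbours on chromosome 6 whose gene models lie 101 bases apart (RefSeq, GRCm38.p6), had few reads, mostly in libraries labelled MAZR-cKO. Peg10 had 4, 5 and 2 reads in MAZR-cKO 1, 2 and 3, against 0, 0 and 1 in WT 1, 2 and 3. Sgce had 4, 6 and 2 reads in MAZR-cKO 1, 2 and 3, against 0, 0 and 1 in WT 1, 2 and 3. The ratio of MAZR-cKO to WT, corrected for depth, was 9.73 for Peg10 (95% counting interval 1.41 to 419) and 10.6 for Sgce (1.57 to 454). The interval covers counting error only. Both genes were picked after their values were seen. Grb10, with 16 and 5 reads, had a ratio of 2.83 (0.991 to 9.88), and Snrpn, with 13 reads under each label, of 0.885 (0.378 to 2.07).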
